A study of Homo sapiens with 6 samples.

Results

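The miRNAs miR-199a, miR-199b, miR-214, miR-143, miR-145 and miR-126 are known chiefly from mesenchymal and endothelial cells and were measured here in a carcinoma line. The members were chosen by name: 9 mature miRNAs, all of them listed in the deposited table of 2656 mature miRNAs, and 7 of the 9 had enough reads to test. Small RNA was sequenced from KPL4, an established human breast adenocarcinoma line, in 3 libraries of ERβ knockout cells to which ERβ had been returned by transfection (libraries ERβ 1, ERβ 2 and ERβ 3) and in 3 libraries of the ERβ knockout cells themselves (libraries KO S1, KO S2 and KO 3). Every library therefore carries the ERβ knockout, all cells grew in medium with serum, insulin and hydrocortisone, and the groups differ by the exogenous receptor. Neither KPL4 cells with their own ERβ nor knockout cells with an empty vector were analysed here, so the receptor and the transfection that delivered it cannot be told apart. The sources used here do not state the knockout clone, the promoter of the ERβ construct, its level in the cells or how replicates were obtained. The messenger RNA of ERβ, which would check the labels, is not read by this assay. The p-values thus rest on the variation among these particular libraries, which may be technical.

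A miRNA is cut from a hairpin transcript whose arms, named 5p and 3p, can each yield a mature strand, and the seed near the strand's 5′ end largely decides which messenger RNAs it represses. miR-214 and the miR-199a of chromosome 1 come from the long non-coding transcript DNM3OS, which the mesenchymal transcription factor TWIST1 activates. miR-143 and miR-145 share the transcript CARMN and are hallmarks of smooth muscle and fibroblasts, while miR-126 lies in EGFL7, a gene of the endothelium. In breast cancer miR-126 is also known as a suppressor of metastasis, and tumour profiles of all these miRNAs are strongly shaped by stroma and vessels, which are absent from a culture of a single line.

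The mature sequences from RefSeq (GRCh38.p14) are given first because they decide which reads could be told apart; 8 of the 9 members matched by name, and the other is miR-199b-5p. Capitals mark the seed, bases 2 to 8.

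miR-199a-5p: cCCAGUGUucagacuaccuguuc
miR-199a-3p: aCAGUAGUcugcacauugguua
miR-199b-3p: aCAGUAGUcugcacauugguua
miR-214-3p: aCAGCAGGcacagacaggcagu
miR-143-3p: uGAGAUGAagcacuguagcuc
miR-145-5p: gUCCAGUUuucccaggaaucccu
miR-126-3p: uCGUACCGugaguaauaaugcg
miR-126-5p: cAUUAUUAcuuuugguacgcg

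miR-199a-3p and miR-199b-3p are identical over all 22 bases, so a read cannot show which of these names it belongs to. Among these 8 sequences no other seed is shared. miR-199a is encoded by 2 hairpins, MIR199A1 (chr19:10817426-10817496, minus strand) and MIR199A2 (chr1:172144535-172144644, minus strand), and miR-199b by 1, MIR199B (chr9:128244721-128244830, minus strand). In GENCODE release 29 on GRCh38 these hairpins lie in introns of DNM2, DNM3 and DNM1 on the opposite strand, and MIR199A2 also overlaps an exon of DNM3OS on its own strand. MIR214 (chr1:172138798-172138907, minus strand) overlaps an exon of DNM3OS 5627 bases from MIR199A2. MIR143 (chr5:149428918-149429023, plus strand) overlaps an exon of a CARMN transcript, and MIR145 (chr5:149430646-149430733, plus strand) follows after 1622 bases in an intron. MIR126 (chr9:136670602-136670686, plus strand) lies in an intron of EGFL7 on the same strand. MIR126 and MIR199A2 are shown as examples of hairpins whose arms are both members, with the mature strands in capitals; MIR199A1 carries the same mature strands as MIR199A2.

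MIR126: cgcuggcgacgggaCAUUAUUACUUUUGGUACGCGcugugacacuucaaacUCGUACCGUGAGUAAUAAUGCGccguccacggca
MIR199A2: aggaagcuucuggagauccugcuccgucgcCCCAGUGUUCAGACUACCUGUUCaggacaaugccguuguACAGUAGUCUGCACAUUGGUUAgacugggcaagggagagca

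Library totals ran from 10288415 to 14296902 counts, and 783 miRNAs were tested. Library KO S2 stood apart from its group: compared by chi-square divided by its degrees of freedom (1 for counting noise alone), it gave 307 against KO S1 and 331 against KO 3, where the other 4 replicate pairs gave 12.2 to 21.2. The tests of members and marker lists are therefore also given without KO S2. Levels are in CPM, the count per 1000000 counts of a library total scaled by TMM, a method that sets the typical miRNA equal between libraries. Differences are log2 fold changes of cells with exogenous ERβ over knockout cells, ± the standard error, from 3 libraries in each group. A miRNA is called where the p-value of edgeR's quasi-likelihood test, after Benjamini-Hochberg adjustment over all 783, is under 0.05.

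Of the 7 tested members, 5 were lower in cells with exogenous ERβ and 0 were higher, against 13.3% of all tested miRNAs called lower, 9.83% called higher and 23.1% called in either direction. The split of all calls moved with the scaling. It was 77 higher and 104 lower under TMM, 123 and 70 under upper-quartile factors, and 146 and 61 under library totals. In both of these alternatives 4 members were called lower and 0 higher. The 5 names cover 4 distinct sequences, since miR-199a-3p and miR-199b-3p are the same molecule. miR-199b-5p and miR-199b-3p are also named as arms of 1 hairpin, so the called members are not independent. All 7 log2 fold changes were below 0, so 0 members were higher at an unadjusted p under 0.05 as well, and DESeq2 and limma-voom also called 5 lower and 0 higher. The median log2 fold change of the 7 names was -0.69, beside -0.01 over all tested miRNAs. That median counts the shared 3p molecule of miR-199 under both its names. In the 5 called members every library with exogenous ERβ lay under every knockout library, as in 20.9% of all tested miRNAs. The largest difference was that of miR-143-3p, which has few reads. The most abundant member, miR-126-3p, had the smallest difference among those called. Without KO S2, 6 of 7 were called lower and 0 higher, while calls among all 800 miRNAs then tested also became more frequent, at 157 lower (19.6%) and 122 higher (15.2%). Whether fewer cells making a miRNA or less of it per cell lay behind a lower level cannot be told apart in such bulk libraries.

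The members covered a wide range of levels, all stated here in CPM. In knockout cells miR-126-3p came first at 16796 ± 224 CPM (mean ± SD, n = 3), then miR-126-5p at 5748 ± 593 CPM, miR-199b-5p at 388 ± 41.9 CPM, miR-199a-3p at 272 ± 27.2 CPM and miR-199b-3p at 135 ± 13.6 CPM. Far below followed miR-143-3p at 8.0 ± 0.646 CPM, miR-199a-5p at 3.41 ± 0.541 CPM, miR-145-5p at 0.489 ± 0.0682 CPM and miR-214-3p at 0.0882 ± 0.0910 CPM. The order was the same in cells with exogenous ERβ. By mean level over all 6 libraries miR-126-3p ranked 14th and miR-126-5p 44th of 2656, and miR-214-3p ranked 1428th. The libraries of neighbours in this order did not overlap within either group, except those of miR-145-5p and miR-214-3p in cells with exogenous ERβ.

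**Figure D1:**
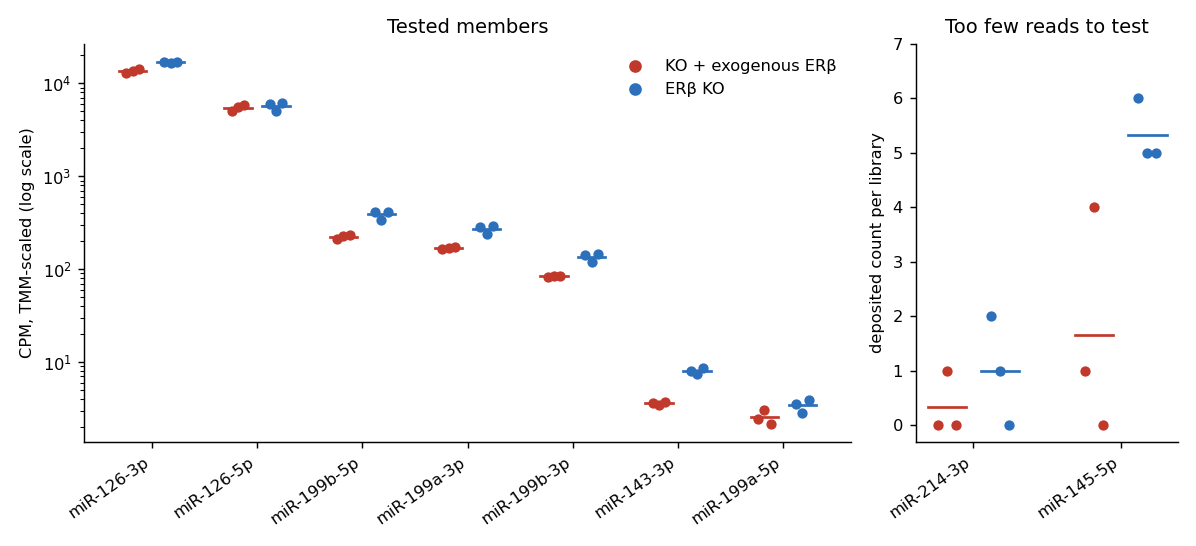
Level of each member in every library: left, CPM on a log scale for the 7 tested members; right, deposited counts for miR-214-3p and miR-145-5p. Points are libraries, lines are group means (n = 3), red marks knockout cells with exogenous ERβ and blue the knockout cells; the tested levels run from 2.16 to 16958 CPM, and in 5 tested members the red points all lie under the blue ones.

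miR-199b-5p, the main 5p strand of the miR-199 family in these cells, had 211, 227 and 230 CPM in ERβ 1, ERβ 2 and ERβ 3, against 413, 339 and 411 CPM in KO S1, KO S2 and KO 3. The groups were far apart, and KO S2 was the lowest of the knockout libraries. miR-199b-5p fell with exogenous ERβ, with a log2 fold change of -0.80 ± 0.10 (adjusted p = 4.34e-04), or -0.88 ± 0.05 without KO S2. Its close relative miR-199a-5p had 2.43, 3.08 and 2.16 CPM with exogenous ERβ and 3.55, 2.81 and 3.87 CPM in knockout cells. Here the groups overlapped, and with 27.3 to 45.7 counts per library the log2 fold change of -0.40 ± 0.22 did not pass (adjusted p = 0.239; -0.52 ± 0.24 without KO S2).

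The 3p strand of miR-199, a known repressor of MET and mTOR, is divided between its names in the deposited table. miR-199a-3p had 165, 169 and 171 CPM with exogenous ERβ and 284, 240 and 291 CPM in knockout cells (log2 fold change -0.69 ± 0.09, adjusted p = 7.68e-04; -0.77 ± 0.05 without KO S2). miR-199b-3p had 82.5, 84.0 and 85.3 CPM with exogenous ERβ and 141, 120 and 144.9 CPM in knockout cells (-0.69 ± 0.10, adjusted p = 0.00109; -0.77 ± 0.06 without KO S2). These are not independent values. The miR-199a-3p count was 2.00 to 2.01 times the miR-199b-3p count in every library, the ratio of their numbers of hairpins, 2 to 1. After taking 2 times the miR-199b-3p count from the miR-199a-3p count, 1.5 to 12 counts per library remained.

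Summed into a single entry, miR-199-3p had 247, 253 and 256 CPM with exogenous ERβ, against 425, 360 and 436 CPM in knockout cells. It was lower with exogenous ERβ, with a log2 fold change of -0.69 ± 0.09 (adjusted p = 6.65e-04), or -0.77 ± 0.05 without KO S2. The equal shares per hairpin say nothing about which hairpin the reads came from. The 5p names, which do not share their mature sequence, give a different picture: miR-199b-5p had 74.4 to 105 times the count of miR-199a-5p in libraries with exogenous ERβ and 107 to 121 times in knockout libraries. Even these counts are not wholly separate, since both 5p names carry counts that are not whole in 5 of 6 libraries, as the 3p names do.

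**Figure D2:**
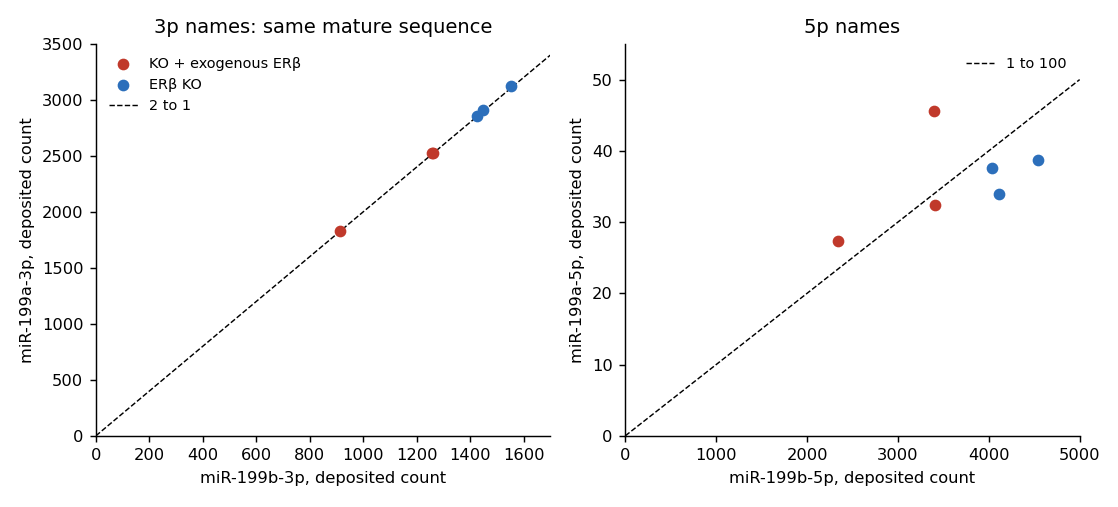
Deposited counts of the miR-199a name (vertical axis) against the miR-199b name (horizontal axis) in each of the 6 libraries, for the 3p names on the left and the 5p names on the right. The 3p points sit on the dashed line of 2 to 1, while the 5p points scatter around the dashed line of 1 to 100, and red libraries (knockout with exogenous ERβ) lie to the left of blue libraries (knockout).

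The balance of the miR-199 arms was close to even. With the a and b names summed, there were 0.863, 0.911 and 0.907 5p reads per 3p read with exogenous ERβ, against 0.980, 0.950 and 0.953 in knockout cells. All 3 libraries with exogenous ERβ lay lower, a difference of -0.10 in the log2 ratio (-0.16 ± 0.04 against -0.06 ± 0.03, SD, n = 3 each). The exact two-sided permutation test gave p = 0.10, the smallest value that 3 against 3 libraries allow, and 0.167 after adjustment over the 5 ratios tested. The log2 ratio of miR-199b-5p to miR-199a-5p was 6.43 ± 0.25 with exogenous ERβ and 6.83 ± 0.09 in knockout cells, again without overlap (difference -0.40, exact permutation p = 0.10, adjusted 0.167). Without KO S2 the differences were -0.11 for the arms and -0.36 for the names.

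miR-214-3p, which shares DNM3OS with miR-199a-2, was nearly absent. It had 0, 1 and 0 counts with exogenous ERβ and 2, 1 and 0 counts in knockout cells, all under the floor of 3 counts, and its other arm miR-214-5p had 0 in every library. A difference was not detectable at this depth. From the opposite strand of the same place, miR-3120-3p had 34 counts in all with exogenous ERβ and 38 in knockout cells (log2 fold change -0.47 ± 0.32, adjusted p = 0.359; -0.21 ± 0.42 without KO S2), and miR-3120-5p had 0 and 2.

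miR-143-3p, which represses hexokinase 2, had 40, 52 and 55 counts with exogenous ERβ, against 88, 89 and 85 counts in knockout cells. Scaled for depth these were 3.60, 3.48 and 3.72 CPM with exogenous ERβ and 8.0, 7.36 and 8.65 CPM in knockout cells. Within each group the libraries were close, and the groups were widely separated. miR-143-3p fell with exogenous ERβ, with a log2 fold change of -1.15 ± 0.15 (adjusted p = 5.45e-04), or -1.20 ± 0.17 without KO S2. Its other arm, miR-143-5p, had 3 counts in all with exogenous ERβ and 0 in knockout cells. The 4 markers of skeletal and cardiac muscle, which like miR-143-3p were at few reads, summed to 0.473 to 1.27 CPM per library with exogenous ERβ and 3.06 to 4.37 CPM in knockout cells. Their single tested member, miR-1-3p, was lower, at 0.515 ± 0.233 CPM with exogenous ERβ and 3.35 ± 0.528 CPM in knockout cells (log2 fold change -2.67 ± 0.33, adjusted p = 4.67e-04; -2.78 ± 0.35 without KO S2). Of the untested muscle markers, miR-133a-3p had 12 counts in all with exogenous ERβ and 10.7 in knockout cells. miR-206 had 1 and 1, and miR-133b 0 and 0.33, so the lower sum rested on miR-1-3p. The part of muscle-type cells or reads in the level of miR-143-3p was not tested.

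miR-145-5p, the partner of miR-143 and a repressor of pluripotency factors such as OCT4, had 1, 4 and 0 counts with exogenous ERβ and 6, 5 and 5 counts in knockout cells. The groups did not overlap, but the filter on low counts removed it; fitted without the filter, its log2 fold change was -1.87 ± 0.81 (adjusted p = 0.150). Relative to miR-143-3p its log2 ratio, with 0.5 added to each count, was -5.03 ± 1.64 with exogenous ERβ and -3.92 ± 0.13 in knockout cells (difference -1.12, exact permutation p = 0.40, adjusted 0.50). The difference was -0.23 without ERβ 3, -1.86 without ERβ 2 and -1.17 without KO S2, and it turned to 0.11 with a pseudocount of 5. At these counts it could not be shown whether the 2 miRNAs of CARMN changed alike. For miR-214-3p against miR-199a-5p the log2 ratio was -5.59 ± 0.58 with exogenous ERβ and -4.92 ± 1.19 in knockout cells (difference -0.68, exact permutation p = 0.50, adjusted 0.50). That difference was -0.48 without KO S2 and lay between -1.35 without KO 3 and -0.20 without KO S1.

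**Figure D3:**
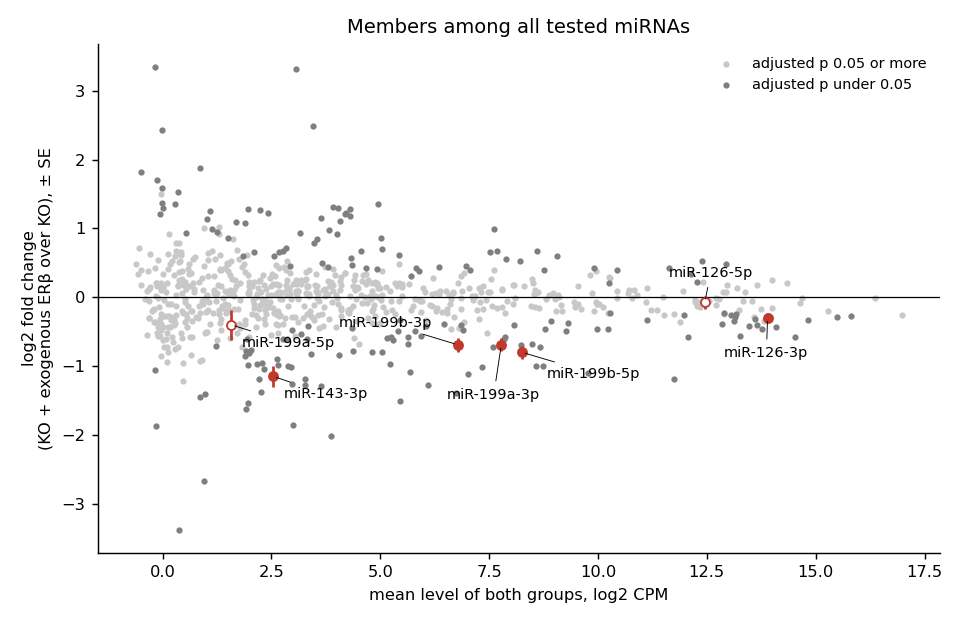
Log2 fold change (knockout with exogenous ERβ over knockout, vertical axis) against mean level (log2 CPM, horizontal axis) for all 783 tested miRNAs in grey (darker where called), with the 7 tested members in red with their standard errors. Filled members passed at an adjusted p under 0.05; miR-143-3p is the lowest member at -1.15, and the open circles are miR-199a-5p and miR-126-5p.

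miR-126-3p, which represses SPRED1 and PIK3R2 in endothelial cells, had 13079, 13752 and 14237 CPM with exogenous ERβ, against 16891, 16540 and 16958 CPM in knockout cells. The groups did not overlap, though the gap between them was small beside the level. Its log2 fold change was -0.30 ± 0.06 (adjusted p = 0.00795), and -0.31 ± 0.04 without KO S2. The call ended without ERβ 1 (-0.23, adjusted p = 0.0746), without ERβ 2 (-0.26, adjusted p = 0.0701), with upper-quartile factors (-0.18, adjusted p = 0.0525) and with library totals (-0.14, adjusted p = 0.0951). Upper-quartile factors and library totals set the median of all tested miRNAs at 0.10 and 0.14. Relative to that median miR-126-3p stood at -0.28 under either, as under TMM. A change of scaling shifts all log2 fold changes by nearly the same amount, so this equality was fixed in advance and adds no support.

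miR-126-5p, the other arm of the hairpin printed above, had 5054, 5528 and 5786 CPM with exogenous ERβ and 5941, 5083 and 6221 CPM in knockout cells. The groups overlapped through KO S2, and the log2 fold change of -0.08 ± 0.09 did not pass (adjusted p = 0.612). Without KO S2 it was -0.16 ± 0.05 and passed (adjusted p = 0.0176). Its sign turned with upper-quartile factors (0.037), library totals (0.083) or without ERβ 1 (0.0083).

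The arms of MIR126 can be compared within a library, where scaling has no part. There were 2.59, 2.49 and 2.46 reads of miR-126-3p per read of miR-126-5p with exogenous ERβ, against 2.84, 3.25 and 2.73 in knockout cells. Each library with exogenous ERβ had the lower ratio, and KO S2 the highest of all. The log2 ratio was 1.33 ± 0.04 with exogenous ERβ and 1.55 ± 0.13 in knockout cells, a difference of -0.22 (exact permutation p = 0.10, adjusted 0.167). Without KO S2 the difference was -0.15. Since 0.10 is the smallest p here, none of the 5 ratios could pass 0.05.

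**Figure D4:**
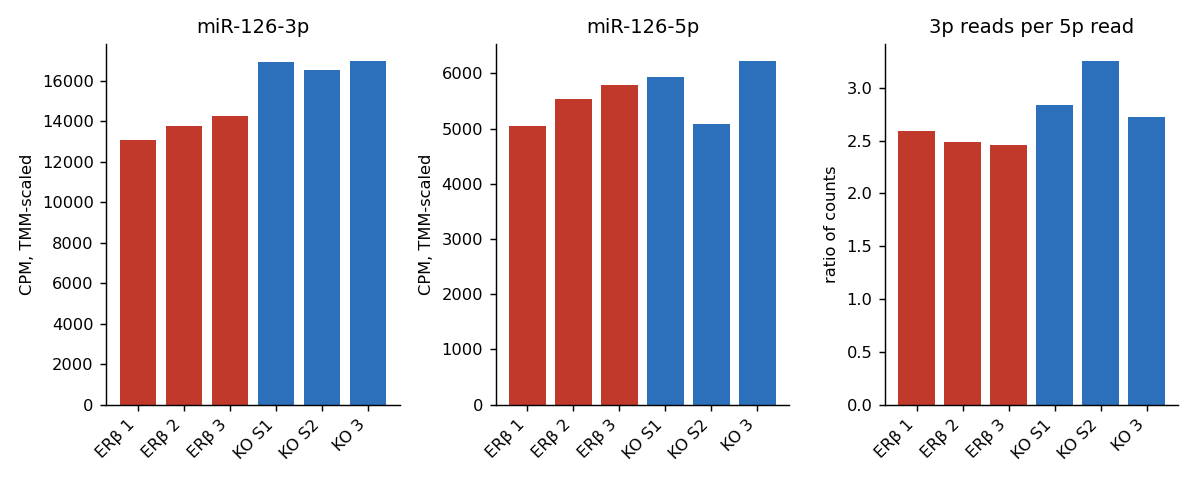
Arms of miR-126 in each library: CPM of miR-126-3p (left), CPM of miR-126-5p (middle) and the ratio of their counts (right), with red bars for knockout cells with exogenous ERβ and blue bars for knockout cells. miR-126-3p is lower in all 3 red libraries, miR-126-5p overlaps between groups, and KO S2 has the highest ratio at 3.25.

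As far as the RefSeq sequences could show, few other reads carried the seeds of the 8 members with a sequence. The seed of miR-199b-5p and listed miRNAs without a RefSeq sequence could not be searched. Of the other listed miRNAs with a RefSeq sequence, 5 shared a seed with a member. miR-3129-5p, with the seed of miR-199-3p, had 6 to 17 counts per library (log2 fold change 0.15 ± 0.37, adjusted p = 0.807), and without KO S2 it did not pass the filter on low counts. miR-3619-5p, with that of miR-214-3p, had 0 to 6. miR-761, miR-6088 and miR-4770 had 0 in every library.

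Other miRNAs known from the same cell types are listed for comparison. Of all tested miRNAs 9.83% were called higher and 13.3% lower. Of 10 tested miRNAs that are also enriched in stroma, 4 were higher and 3 lower with exogenous ERβ (median log2 fold change -0.18). The higher ones were miR-100-5p (2.48 ± 0.21), miR-382-5p (1.21 ± 0.12), miR-379-5p (1.11 ± 0.15) and miR-409-3p (0.67 ± 0.13), and the lower ones miR-10b-5p (-1.85 ± 0.15), miR-152-3p (-0.70 ± 0.08) and miR-22-3p (-0.46 ± 0.07). Calls of the stromal list thus lay in both directions, as they did without KO S2 (4 higher, 5 lower). Of 4 other miRNAs enriched in endothelium, miR-222-3p (-0.37 ± 0.07) and miR-221-3p (-0.34 ± 0.08) were lower, while miR-139-5p (-0.29 ± 0.14) and miR-218-5p (0.21 ± 0.14) did not pass; without KO S2 the same 2 of the 4 were called lower.

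Epithelial miRNAs, markers of the labelled carcinoma cell, were far above the miR-199, miR-214, miR-143 and miR-145 families. The 7 epithelial markers summed to 93107 to 97879 CPM per library with exogenous ERβ and 94362 to 110373 CPM in knockout cells, where the 7 members of those families summed to 465 to 492 CPM with exogenous ERβ and 710 to 859 CPM in knockout cells. The miR-126 arms summed to 18133 to 20023 CPM with exogenous ERβ and 21623 to 23178 CPM in knockout cells. Of the epithelial markers 1 was higher, miR-205-5p (0.52 ± 0.08), and 3 were lower, miR-200c-3p (-0.31 ± 0.07), miR-203a-3p (-0.25 ± 0.06) and miR-141-3p (-0.33 ± 0.09). Without KO S2, 1 was higher and 5 were lower, with miR-200a-3p (-0.12 ± 0.04) and miR-200b-3p (-0.35 ± 0.04) added.

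Of the markers of blood, liver and nerve, the tested ones did not pass, with adjusted p between 0.0718 for miR-451a and 0.981 for miR-142-5p. Without KO S2 the neural marker miR-219a-5p passed (-0.34 ± 0.10, adjusted p = 0.0101) and the others did not. The 7 blood markers summed to 19.2 to 22.1 CPM with exogenous ERβ and 18.6 to 23.5 CPM in knockout cells. The liver marker miR-122-5p was at 20.1 to 28.7 CPM with exogenous ERβ and 17.2 to 20.5 CPM in knockout cells. The 3 neural markers summed to 201 to 210 CPM with exogenous ERβ and 163 to 224 CPM in knockout cells. The part of other cells in the members' levels was not tested.

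The miRNAs whose profile over the 6 libraries was most like that of the leading members were sought among 385 others averaging at least 10 CPM, by Pearson's r of log2 CPM. For miR-199b-5p these were miR-338-3p (r = 0.990), miR-203a-3p (0.990) and miR-152-3p (0.990). For miR-143-3p they were miR-363-3p (0.997), miR-195-5p (0.996) and miR-152-3p (0.996), and for miR-126-3p miR-338-3p (0.990), miR-27b-3p (0.986) and miR-424-5p (0.985). All of these were also lower with exogenous ERβ. These points share libraries and fall into 2 groups, and r was over 0.9 for 53, 54 and 44 of the 385 for miR-199b-5p, miR-143-3p and miR-126-3p.

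**Figure D5:**
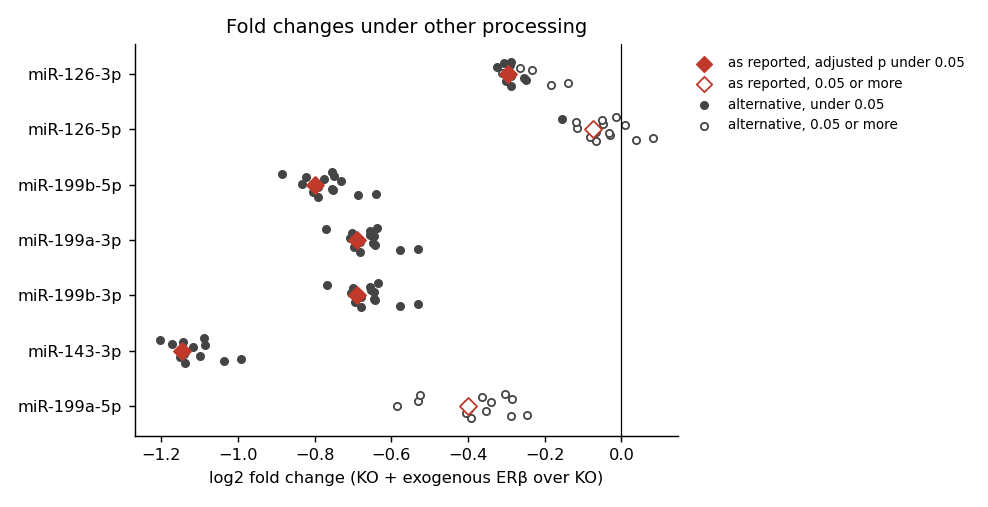
Log2 fold changes of the 7 tested members (knockout with exogenous ERβ over knockout, horizontal axis) as reported (diamonds) and under each alternative of scaling, filter, test, block or omitted library that gave a value (circles, filled where the adjusted p was under 0.05). The 3 called miR-199 names and miR-143-3p stay filled throughout, while miR-126-3p has 5 open circles, 1 of them from the replicate block, and miR-126-5p lies around 0.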

How the data were processed

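Libraries were made with a QIAseq miRNA kit, per the labels' protocols, which also list a TaqMan reverse transcription kit. The submitters' processing notes name FastQC, Trim Galore and GRCh38. Not given in the sources used here: tool versions, aligner, counter, miRNA release, how shared reads were divided, and whether molecular identifiers were collapsed. The authors deposited expected counts for 2656 mature miRNAs, and 6.33 to 7.27% of a library's values are not whole. Columns were assigned by name. Of the knockout columns 2 carry the number 1, so KO S1 and KO S2 are known by group only.

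Rounded counts were fitted with edgeR 4.0.16 under R 4.3.3 (filterByExpr, minimum count 10 and total 15, TMM, robust quasi-likelihood test, Benjamini-Hochberg over 783 miRNAs), with all 6 libraries and no covariates. Standard errors were taken as the log2 fold change divided by the root of the F statistic. The floor of 3 counts per library was 0.201 to 0.305 CPM on the TMM-scaled totals and, like all counting limits, covers counting error only. Ratios used deposited counts plus 0.5 and exact permutation tests; likeness used log2(CPM + 0.1). Alternatives were other scalings, filters, DESeq2 1.42.0, limma-voom (limma 3.58.1) and a block for the number in the column name. Further alternatives were omission of each library in turn and summing of the miR-199-3p names. Values of the marker lists without KO S2 were added after seeing the data.

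Members and lists were chosen with earlier results of these data known. Text names all members, their hairpin mates and seed relatives, up to 3 of each list by adjusted p, calls against the list's majority and the 3 most alike miRNAs; miR-379-5p, miR-409-3p, miR-218-5p, miR-141-3p and the markers of other cells were added to complete counts.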

Additional observations from a re-analysis of the deposited data

How the results depend on the processing

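No member was called higher in any alternative, and the count called lower was 4 to 6. miR-199b-5p, the miR-199-3p names, their sum and miR-143-3p kept their direction and call in every alternative that gave a value, with log2 fold changes of -0.88 to -0.64, -0.77 to -0.53, -0.77 to -0.53 and -1.20 to -0.99. miR-199a-5p passed in none (-0.58 to -0.25). miR-126-3p lost its call in 5 of 16 (-0.32 to -0.14). The log2 fold change of miR-126-5p was 0.037 under upper-quartile scaling and 0.083 under library totals, and it ran from -0.16 to 0.0083 with a library left out. The log2 ratio of miR-145-5p to miR-143-3p turned to a difference of 0.11 with a pseudocount of 5, and without a pseudocount the ratios of miR-145-5p and miR-214-3p gave no value. The filter of 10 CPM in 3 libraries removed miR-143-3p and miR-199a-5p. With the replicate block 4 members were called lower, and miR-126-3p was at -0.31 (adjusted p = 0.0939). Deviations of same-numbered libraries from their group means had correlations of -0.0957, 0.134 and 0.123. For libraries with different numbers they were -0.103 to 0.0833. KO S1 and KO S2 both carry the number 1, so these values cannot show whether the numbers mark pairs. The main fit has no block.

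Of all tested miRNAs, 123 were higher under upper-quartile scaling, 146 higher and 61 lower with library totals, 66 lower with the filter of 10 CPM, and 38 higher and 50 lower with the replicate block. With a library left out 49 to 122 were higher and 58 to 157 lower, against 77 and 104 with all libraries. The counts moved by over 1.5 times without KO S2 (122 higher, 157 lower), ERβ 1 (58 lower), ERβ 2 (60 lower) and ERβ 3 (49 higher, 62 lower). The causes were not tested. Depth limits miR-145-5p and miR-214-3p, with at most 6 counts per library.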
